A study of Homo sapiens with 6 samples.

Results

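The genes described are the ZNF genes of human chromosome 19, taken as every gene whose name is ZNF followed directly by a number and whose chromosome is 19. There are 246 of them among 20036 genes measured. RNA was sequenced from PANC-1, a human line from a pancreatic duct carcinoma. There were 3 libraries from cells that received an SHMT2 knockdown lentivirus and 3 from cells that received a control virus without the knockdown (null virus). SHMT2, a mitochondrial enzyme, splits serine into glycine and a one-carbon unit carried by folate. Nothing used here gives the hairpin, the number of hairpins, any selection or the time after delivery. The labels are silent on whether replicates were separate cultures, and the p-values cover the spread between libraries alone, which may be technical.

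Most ZNF genes encode proteins with a row of C2H2 zinc fingers, each finger a short zinc-bound fold that reads a few bases of DNA. Many also carry a KRAB domain at the start of the protein, which recruits the co-repressor TRIM28 and, through it, the histone H3 lysine 9 methyltransferase SETDB1 and HP1 proteins. KRAB zinc finger proteins are best known as repressors of transposable elements. Human chromosome 19 holds the largest share of these genes, in tandem clusters that arose by repeated duplication, and the clusters themselves are often packed in heterochromatin.

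Library totals ran from 15405884 to 19075734 counts. SHMT2 had 6.91, 3.42 and 5.23 CPM in knockdown replicates 1, 2 and 3, against 133, 153 and 153 CPM in control replicates 1, 2 and 3, and its log2 fold change was -4.80. CPM are counts scaled to a common library size with edgeR's TMM factors. Knockdown replicate 2 and control replicate 1 stood apart from the other libraries of their groups. Counts of these libraries differed from those of their group by a chi-square per gene of 74.7 or 76.4 for knockdown replicate 2 and of 26 or 31.1 for control replicate 1, against 2.46 and 2.08 for the remaining pair of each group. Mitochondrial transcripts took 10.4% of knockdown replicate 2, against 4.72% in each other knockdown library and 5.78% to 6.86% in control libraries. Of 5 ductal epithelial markers, KRT8 and KRT19 were called higher, EPCAM lower, and KRT7 and KRT18 had no call. KRT19 had 75.7, 55.0 and 78.6 CPM in knockdown libraries, against 0.189, 0.267 and 0 CPM in control libraries. EPCAM had 5.96, 7.57 and 7.30 CPM in knockdown libraries, against 18.0, 18.6 and 17.6 CPM in control libraries, and KRT8 had 1427, 1312 and 1491 CPM in knockdown libraries, against 830, 1017 and 992 CPM in control libraries. The summed acinar markers were at 0 in all 6 libraries, and the summed immune, fibroblast, endothelial and endocrine markers reached at most 3.11 CPM in any library. The part of these marker and library differences in the ZNF results was not tested. In bulk RNA, fewer cells of a type and less RNA per cell cannot be told apart.

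More ZNF genes of chromosome 19 were higher than lower in knockdown cells. Of 206 members with enough counts to test, 95 (46.1%) were called higher and 17 (8.25%) lower, against 26.7% and 25.1% of all 12292 genes tested (edgeR's quasi-likelihood test with Benjamini-Hochberg adjustment, called at an adjusted p below 0.05). Their median log2 fold change was 0.46, against 0.003 over all genes tested, and 160 values were positive and 46 negative. At least 2-fold higher were 41 members, against 9.81% of all genes tested, and at least 2-fold lower were 2, against 5.78%. The filter on low counts asks for about 0.604 CPM in at least 3 libraries, and 8 of the 206 members reached it in all knockdown libraries but not in all control libraries, while 0 did the opposite. The filter itself favours a difference in these 8, so their calls support nothing. Of them 6 were called higher: ZNF253, ZNF682, ZNF90, ZNF737, ZNF649 and ZNF528. These 6 are included in the counts by sub-cluster, KRAB class, number of fingers and length below. Among all 478 genes that passed in this way, 68.8% were called higher. Of the 197 members in which both groups reached it, 89 (45.2%) were called higher and 17 (8.63%) lower, with a median of 0.42. In all 11407 such genes the shares were 25.9% and 25.8%. Over the 199 members whose mean over all libraries was at least 1 CPM, 93 (46.7%) were called higher and 17 (8.54%) lower, with a median of 0.43, against 26.9% and 25.7% of all genes at that level. Over all 246 members, tested or not, the 3 knockdown libraries lay above the 3 control libraries for 115 and below for 25, where 21.2% and 19.7% of all genes of the table did so. Other genes of chromosome 19 had the opposite balance, with 74 of 720 (10.3%) called higher and 298 (41.4%) lower and a median of -0.36. ZNF genes of other chromosomes had 95 of 217 (43.8%) called higher and 31 (14.3%) lower and a median of 0.34. The difference between these sets was not tested.

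**Figure D1:**
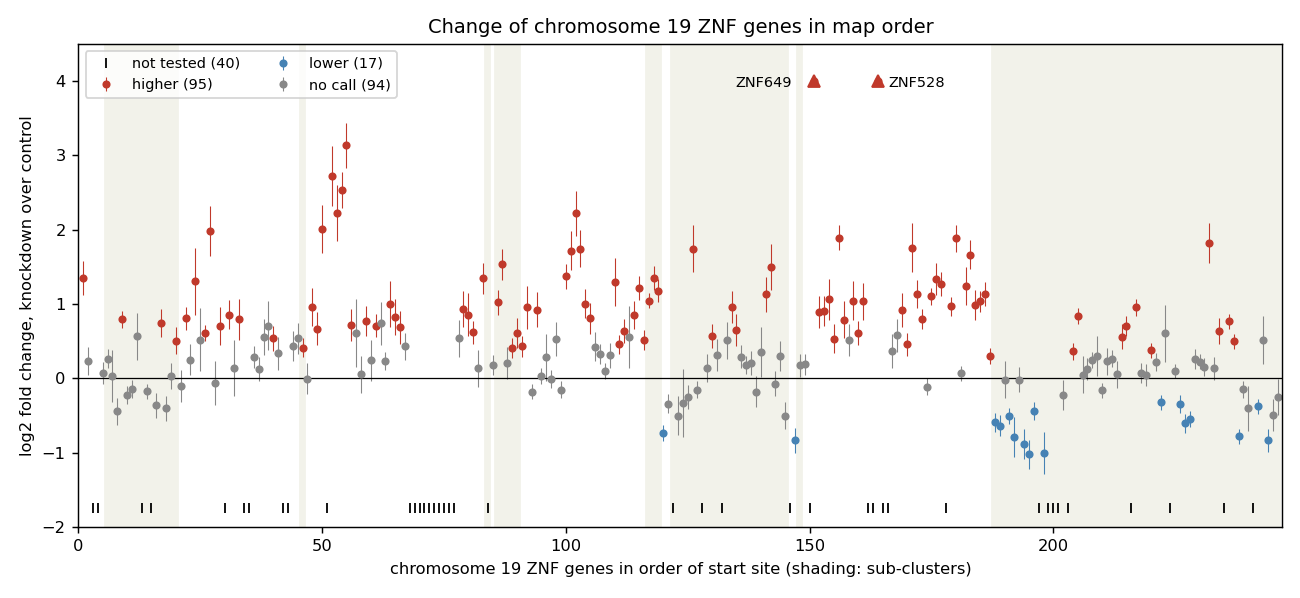
Log2 fold change of each chromosome 19 ZNF gene, knockdown over control, in order of start site, with bars of 1 SE, colour for the call and shading for alternate sub-clusters. Red points fill most sub-clusters, blue points sit mainly in the last, ticks at the foot mark the 40 genes not tested, and ZNF649 and ZNF528 (triangles, at 0 counts in all control libraries) are drawn at 4 since their fitted values have no meaning as sizes.

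Summed over all members, the level was 4070, 4316 and 4046 CPM in knockdown libraries, against 3301, 2808 and 2745 CPM in control libraries, so the groups did not overlap. Control replicate 1 was the highest control library for 122 of the 206 tested members, and knockdown replicate 2 was the highest knockdown library for 112. Relative to the control mean, the median member lay at 0.37, 0.46 and 0.36 on the log2 scale in knockdown replicates 1, 2 and 3, and at 0.10, -0.04 and -0.06 in control replicates 1, 2 and 3. The part of these libraries in single results was not tested, and without both of them 119 members were called higher and 27 lower. Calls rose over the whole table too: 4576 of 12415 genes were then called higher and 4559 lower. Together these were 73.6% of genes, against 51.8% with all libraries.

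The members fall into 16 sub-clusters when a gap of over 1 Mb between start sites opens a new sub-cluster. In 8 of them at least 5 members were tested, and these 8 hold 230 members. Positions are those of the table, whose gene starts or ends matched GRCh38 annotation (GENCODE 29) for 208 of the members. Over all genes tested, 26.7% were called higher and 25.1% lower. Along the short arm, ZNF557 to ZNF846 (7.1 to 9.8 Mb) had 3 of 13 tested members (23.1%) called higher and 0 lower, with a median of 0.03. From ZNF653 to ZNF791 (11.5 to 12.6 Mb), 8 of 20 were called higher and 0 lower, with a median of 0.54. Next to the centromere, ZNF101 to ZNF254 (19.7 to 24.1 Mb) had 17 of 26 called higher and 0 lower, with a median of 0.73. These 17 include ZNF253, ZNF682, ZNF90 and ZNF737, which passed the filter on low counts only through the knockdown group. Over these 3 sub-clusters DESeq2 and limma-voom also called 0 lower, and at an unadjusted p below 0.05 edgeR gave 2, ZNF414 and ZNF561. All 37 members from ZNF101 to ZNF254 were of the KRAB class.

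On the long arm, ZNF302 to ZNF792 (34.7 to 35.0 Mb) had 4 of 5 tested members called higher, and ZNF565 to ZNF573 (36.2 to 37.8 Mb) had 15 of 26, with medians of 0.61 and 0.55. Between ZNF575 and ZNF296 (43.5 to 45.1 Mb), 6 of 21 (28.6%, against 26.7% of all genes) were called higher, with a median of 0.29. The share was highest from ZNF175 to ZNF331 (51.6 to 53.6 Mb), where 27 of 33 tested members (81.8%) were called higher, with a median of 0.98. Of these, 16 were at least 2-fold higher. Both counts include ZNF649 and ZNF528, which passed the filter on low counts only through the knockdown group. No tested member was called lower in these 4 sub-clusters by edgeR or DESeq2, and at an unadjusted p below 0.05 edgeR gave 1, ZNF296, and limma-voom called 1 in that sub-cluster. The last one, ZNF628 to ZNF446 (55.5 to 58.5 Mb), had 10 of 50 called higher and 15 lower, with a median of 0.05. It holds 15 of the 17 members called lower, and the other two, ZNF574 and ZNF114, lie at 42.1 and 48.3 Mb.

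The same spans hold genes with other names. Inside ZNF557 to ZNF846, 0 of 25 tested genes of other names were called higher and 14 lower. Inside ZNF575 to ZNF296, 1 of 17 was called higher and 10 lower, and inside ZNF628 to ZNF446, 1 of 16 was called higher and 5 lower. The span from ZNF175 to ZNF331 held 3 such genes, of which 0 were called higher and 2 lower. All 3 inside ZNF565 to ZNF573 were called higher, but these are themselves zinc finger genes: ZFP14, ZFP82 and ZFP30. Those inside ZNF628 to ZNF446 also include zinc finger genes, ZSCAN5A (called lower) and ZSCAN22 (no call). Leaving out control replicate 2 gave 8 members called higher in ZNF101 to ZNF254, and leaving out control replicate 3 gave 10 there and 8 in ZNF565 to ZNF573. In ZNF653 to ZNF791 the count was 4 or 5 when control replicate 2, control replicate 3, knockdown replicate 1 or knockdown replicate 3 was dropped, and in ZNF302 to ZNF792 it was 2 on dropping any 1 of these 4. Calls over all genes fell too, from 51.8% to 38.0% without control replicate 2 and 38.4% without control replicate 3. They were 42.4% without knockdown replicate 1 and 43.9% without knockdown replicate 3.

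**Figure D2:**
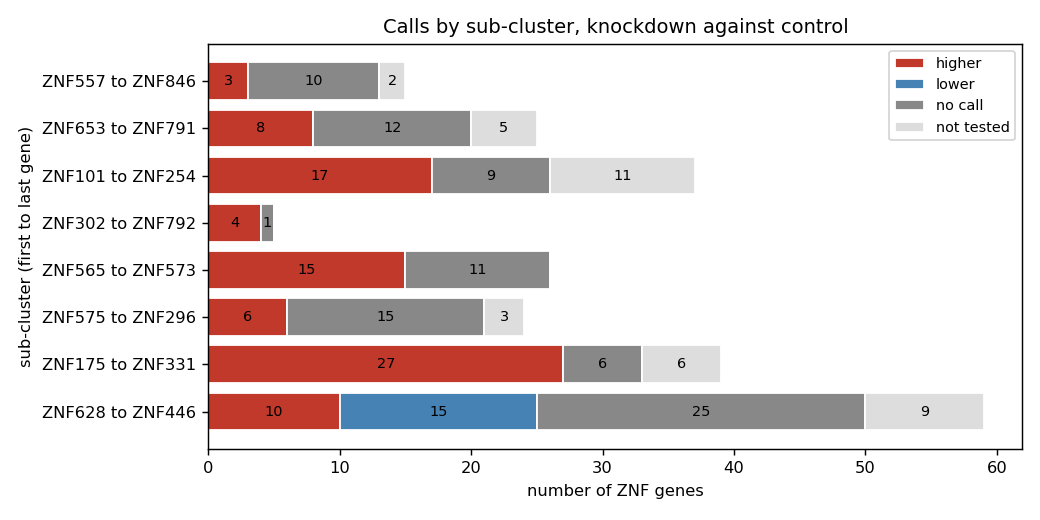
Number of ZNF genes called higher, called lower, without a call and not tested in knockdown against control cells, for the 8 sub-clusters with at least 5 tested members, in map order from top to bottom. ZNF175 to ZNF331 has 27 genes called higher and 0 lower, and ZNF628 to ZNF446 has 10 higher and 15 lower.

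In 4 members all control libraries had 0 counts and the knockdown group had over 3. ZNF528, a KRAB zinc finger gene (chr19, 52397849 to 52418412, plus strand), had 35, 21 and 33 counts in knockdown replicates 1, 2 and 3, against 0, 0 and 0 counts in control libraries. With a floor of 3 counts over the control group it was at least 24.8-fold higher in knockdown cells, and it was chosen after its values were seen. ZNF649, a KRAB protein described as a repressor of LINE-1 elements, had 15, 20 and 13 counts in knockdown libraries and 0 counts in each control library, and was at least 13.4-fold higher by the same floor. Both passed the filter on low counts only through the knockdown group, so their calls support nothing. ZNF577, whose span overlaps that of ZNF649 on the same strand, was not tested and had 14, 9 and 10 counts in knockdown libraries and 0 in each control library, and reads of the overlap may be shared. The 3 genes lie in the sub-cluster of ZNF175 to ZNF331. ZNF582, in the last sub-cluster, was also untested and had 3, 6 and 3 counts in knockdown libraries and 0 in each control library.

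The promoters below are shown because they belong to a member at 0 counts in control cells, to a neighbouring pair among the largest rises and to the member with the largest fall. Each is the 250 bases before the start of the gene, 5′ to 3′ on the gene's strand, from RefSeq (GRCh38.p14), and capitals mark CpG dinucleotides, the bases at which DNA methylation occurs. ZNF528 is at chr19:52397599-52397848 (plus strand), ZNF737 at chr19:20565782-20566031 (minus strand), ZNF486 at chr19:20166964-20167213 (plus strand) and ZNF787 at chr19:56121296-56121545 (minus strand).
ZNF528: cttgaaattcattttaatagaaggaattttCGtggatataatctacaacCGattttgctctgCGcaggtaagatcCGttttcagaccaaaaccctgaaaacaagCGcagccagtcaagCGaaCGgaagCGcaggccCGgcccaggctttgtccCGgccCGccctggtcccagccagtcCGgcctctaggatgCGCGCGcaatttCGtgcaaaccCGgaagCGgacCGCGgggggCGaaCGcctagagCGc
ZNF737: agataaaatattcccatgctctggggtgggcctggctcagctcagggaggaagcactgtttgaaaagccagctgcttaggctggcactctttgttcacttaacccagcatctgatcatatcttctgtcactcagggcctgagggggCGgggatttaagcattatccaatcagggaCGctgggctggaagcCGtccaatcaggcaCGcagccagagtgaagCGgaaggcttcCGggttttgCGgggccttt
ZNF486: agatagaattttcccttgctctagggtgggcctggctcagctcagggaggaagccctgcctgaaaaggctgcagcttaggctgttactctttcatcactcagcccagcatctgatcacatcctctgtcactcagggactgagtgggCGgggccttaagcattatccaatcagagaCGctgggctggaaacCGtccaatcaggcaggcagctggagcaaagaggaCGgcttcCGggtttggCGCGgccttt
ZNF787: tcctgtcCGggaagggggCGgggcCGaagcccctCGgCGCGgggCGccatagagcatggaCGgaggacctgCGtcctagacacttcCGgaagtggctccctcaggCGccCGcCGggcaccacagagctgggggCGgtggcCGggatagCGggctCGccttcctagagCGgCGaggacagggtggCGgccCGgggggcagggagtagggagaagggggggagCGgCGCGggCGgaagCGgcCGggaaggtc
They hold 23, 7, 7 and 27 CpG in the order printed. ZNF528 and ZNF737 passed the filter on low counts only through the knockdown group, so these counts say nothing of risers in general. Over the 268 promoters of 216 members found in RefSeq, the median was 16 CpG, against 11 over all 35116 promoters.

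Motifs were counted on both strands of the same 250 bases. The ETS-type motif CCGGAAG was in 28.4% of member promoters and in 8.52% of all promoters, and all 4 promoters printed have it. The GC box GGGCGG was in 61.6% of member promoters and 42.6% of all, and the TATA box TATAAA in 2.61% and 10.7%. Shares of 9.33% and 5.07% were found for the NRF1 motif (GCGCA, any base, GCGC), of 2.61% and 1.65% for TGACGTCA, the cAMP response element, and of 0.746% and 3.02% for the interferon-type motif (TTTC, any 2 bases, TTTC). The CCGGAAG and GGGCGG motifs each contain a CpG, so they overlap the bases in capitals. A match is a description of these letters and was not tested for use.

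The 4 largest log2 fold changes among members with a mean of at least 1 CPM and separate groups were those of neighbours beside the centromere, and 3 of these 4 passed the filter on low counts only through the knockdown group, so that their values are a description. ZNF737 had 5.02, 6.05 and 5.49 CPM in knockdown replicates 1, 2 and 3, against 1.01, 0.401 and 0.443 CPM in control replicates 1, 2 and 3. Its log2 fold change was 3.14, and no library of a group overlapped the other group. ZNF682 had 2.88, 2.02 and 2.02 CPM in knockdown libraries, against 0.126, 0.534 and 0.380 CPM in control libraries, a log2 fold change of 2.73. ZNF486 had 6.61, 7.33 and 5.85 CPM in knockdown libraries, against 1.57, 0.935 and 0.886 CPM in control libraries, a log2 fold change of 2.53. All encode KRAB zinc finger proteins. ZNF90 and ZNF253, of the same region, had log2 fold changes of 2.23 and 2.0, with ZNF829 of another sub-cluster at 2.22 between them. Of these 5 genes, ZNF486 is the one in which both groups reached the minimum of the filter.

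These 5 genes and ZNF93 are the 6 consecutive members from ZNF253 to ZNF737, between 19.9 and 20.6 Mb. ZNF93, known as a repressor of LINE-1 elements, was too low to test and had 9, 6 and 4 counts in knockdown libraries, against 1, 1 and 0 counts in control libraries. Summed over the 6 genes, there were 406, 371 and 364 counts in knockdown libraries and 77, 43 and 41 counts in control libraries. About 1.4 Mb further on, the 10 consecutive members from ZNF208 to ZNF730 were almost silent: 9 had 0 counts in all 6 libraries and ZNF730 had 1 count in all. Both runs were picked after their values were seen.

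The other large log2 fold changes were spread over the sub-clusters. ZNF829 had 7.45, 10.3 and 6.99 CPM in knockdown libraries, against 2.64, 1.34 and 1.27 CPM in control libraries, a log2 fold change of 2.22. ZNF439 had 5.02, 4.398 and 4.402 CPM in knockdown libraries, against 0.944, 1.94 and 0.633 CPM in control libraries, a log2 fold change of 1.98. Both are KRAB zinc finger genes, and neither group overlapped the other. In the sub-cluster of ZNF175 to ZNF331, ZNF432 reached 8.10, 6.84 and 6.84 CPM in knockdown libraries, against 2.014, 2.004 and 1.84 CPM in control libraries, with a log2 fold change of 1.89 (SE 0.16, edgeR adjusted p = 0.000121). ZNF665 had 7.16, 6.96 and 6.32 CPM in knockdown libraries and 2.20, 1.67 and 1.65 CPM in control libraries, a log2 fold change of 1.88. ZNF418 stands out in the last sub-cluster, with 4.57, 3.05 and 3.57 CPM in knockdown libraries, against 0.881, 1.40 and 0.886 CPM in control libraries and a log2 fold change of 1.83. It lies among members with changes of either sign.

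The members of highest level rose by less than the genes above. Per length, ZNF146 was highest, with a mean of 57.4 FPKM over all libraries, followed by ZNF780A with 24.2 FPKM and ZNF780B with 19.1 FPKM. ZNF146, also called OZF, consists almost only of zinc fingers and is known to be overexpressed in pancreatic and colorectal cancers. It had 293, 343 and 297 CPM in knockdown libraries, against 250, 117 and 115 CPM in control libraries, a log2 fold change of 0.95 (SE 0.29, edgeR adjusted p = 0.026). Control replicate 1 lay much nearer to the knockdown libraries than the other controls did. The call was lost without control replicate 2, control replicate 3 or any knockdown replicate, with edgeR adjusted p-values up to 0.087.

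ZNF546, ZNF780B and ZNF780A lie within 40.0 to 40.1 Mb, and all 3 rose. ZNF780A had 281, 229 and 282 CPM in knockdown libraries, against 143, 106 and 102 CPM in control libraries, a log2 fold change of 1.18 (SE 0.15, edgeR adjusted p = 0.000694). ZNF780B had 265, 226 and 260 CPM in knockdown libraries and 122, 91.2 and 81.1 CPM in control libraries, a log2 fold change of 1.35. For ZNF546 the levels were 117, 120 and 113 CPM in knockdown libraries and 63.9, 54.6 and 51.8 CPM in control libraries, a log2 fold change of 1.04. In each of these 3 genes the groups did not overlap. Among the most abundant members of other sub-clusters, ZNF160 (1.27), ZNF181 (1.53), ZNF302 (1.02), ZNF260 (0.92), ZNF121 (0.75), ZNF700 (0.71), ZNF264 (0.36) and ZNF331 (0.30) rose by the log2 fold changes given. ZNF317 (-0.22), ZNF791 (0.54), ZNF101 (-0.01), ZNF43 (0.43), ZNF45 (-0.16) and ZNF229 (-0.07) had no call. After the length and GC correction ZNF302 was at 0.66, ZNF260 at 0.56, ZNF121 at 0.45, ZNF331 at 0.19 and ZNF264 at 0.03. Calls of 5 of those that rose rest on single libraries. That of ZNF700 was lost without any 1 library other than control replicate 1 (edgeR adjusted p up to 0.15), that of ZNF331 without any 1 library (up to 0.18), and that of ZNF264 when control replicate 1, control replicate 3, knockdown replicate 1 or knockdown replicate 2 was dropped (up to 0.086). With RLE size factors the calls of ZNF331 and ZNF700 were lost, ZNF331 also lost its call with DESeq2, without a filter and with the replicate block, and ZNF700 with a 1 CPM filter. ZNF121 lost its call without control replicate 2 and ZNF260 without control replicate 3, both at an edgeR adjusted p of 0.0501.

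**Figure D3:**
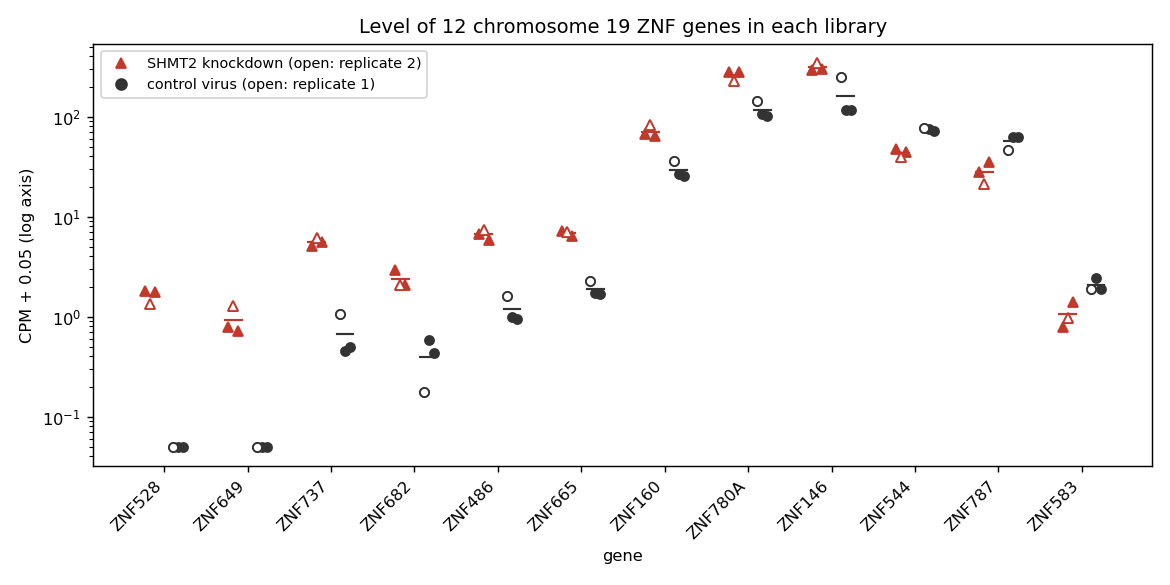
Level of 12 ZNF genes in each library, as CPM plus 0.05 on a log axis, with knockdown libraries (triangles) left of control libraries (circles), a line for the group mean, and open symbols for the 2 libraries that stood apart. ZNF528 and ZNF649 are at 0 in all control libraries, ZNF737 to ZNF146 are higher in knockdown libraries, and ZNF544, ZNF787 and ZNF583 are lower.

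Of the members that fell, 7 lie in a stretch at the start of the last sub-cluster. From ZNF628 to ZNF444 (55.5 to 56.2 Mb), 7 of 9 consecutive members were called lower and 0 higher, and all 9 are of the class without KRAB. ZNF787 fell most, with 28.1, 21.3 and 35.1 CPM in knockdown replicates 1, 2 and 3, against 46.8, 63.1 and 62.2 CPM in control replicates 1, 2 and 3, a log2 fold change of -1.02 (SE 0.20, edgeR adjusted p = 0.0038). ZNF581 had 11.7, 8.74 and 13.0 CPM in knockdown libraries, against 16.1, 24.0 and 22.0 CPM in control libraries, a log2 fold change of -0.89. Its span overlaps ZNF580 and CCDC106 on the same strand, so its reads may be shared. In both genes knockdown replicate 2 was the lowest library. ZNF784 (-0.79), ZNF579 (-0.64) and ZNF444 (-0.44) fell too, ZNF444 being a regulator known to bind the promoter of the scavenger receptor SCARF1. After the length and GC correction ZNF787 was at -0.56, ZNF581 at -0.51, ZNF784 at -0.28, ZNF444 at -0.21 and ZNF579 at -0.13. The call of ZNF784 was lost without any 1 library other than control replicate 1 (edgeR adjusted p up to 0.15), and that of ZNF444 without control replicate 3 (0.0603). Both calls were also lost with library size alone and by limma on log2(FPKM + 1). The run was picked after its values were seen.

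KRAB members fell as well, further along. ZNF583 had 0.745, 0.916 and 1.35 CPM in knockdown libraries, against 1.83, 2.41 and 1.84 CPM in control libraries, a log2 fold change of -1.003 (SE 0.28, edgeR adjusted p = 0.020). Its call was lost without control replicate 2 or knockdown replicate 1 (edgeR adjusted p up to 0.076). ZNF544 had 47.1, 39.2 and 44.0 CPM in knockdown libraries, against 77.0, 74.8 and 72.4 CPM in control libraries, a log2 fold change of -0.78 (SE 0.10, edgeR adjusted p = 0.000552). In these genes every knockdown library was below every control library. ZNF324B (-0.84) and ZNF552 (-0.61) fell in the same sub-cluster, and ZNF114 (-0.84) and ZNF574 (-0.74) outside it. After the length and GC correction ZNF324B was at -0.52 and ZNF574 at -0.42. ZNF552 was then at -0.60, ZNF114 at -0.75, ZNF544 at -0.85 and ZNF583 at -1.39, below ZNF787 (-0.56).

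Members were divided by whether the table's KEGG annotation or an annotated protein start gives a KRAB domain. Over all genes tested, 26.7% were called higher and 25.1% lower. Of 179 tested KRAB members, 89 (49.7%) were called higher and 9 (5.03%) lower, with a median of 0.53. These 89 include 6 that passed the filter on low counts only through the knockdown group. Of 27 tested members without KRAB, 6 (22.2%) were called higher and 8 (29.6%) lower, shares near those of all genes, with a median of -0.34. Summed KRAB members had 3308, 3499 and 3256 CPM in knockdown libraries and 2547, 2229 and 2166 CPM in control libraries. Members without KRAB summed to 761, 817 and 790 CPM in knockdown libraries and 753, 579 and 579 CPM in control libraries, a sum in which ZNF146 is the most abundant gene per length. In the last sub-cluster, 7 of 13 tested members without KRAB (53.8%) were called lower and 2 (15.4%) higher. Of 37 KRAB members there, 8 (21.6%) were called in each direction. The classes also differ in base composition, whose part in this was not tested: the median GC content of the transcript was 41.8% in KRAB members and 60.9% in members without KRAB. With the number of zinc fingers, the share called higher was 23.1% for up to 7 fingers, 50.0% for 8 to 11, 41.8% for 12 to 15 and 59.2% for 16 or more. In the same order, 23.1%, 6.25%, 5.97% and 6.12% were called lower. The median GC content was 50.1%, 42.1%, 42.4% and 40.9%. Medians of log2 fold change corrected for length and GC content were 0.05, 0.28, 0.20 and 0.45.

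Gene length and GC content moved with the fold change. Members up to 4689 bases long had 23 of 69 called higher and 10 lower, with a median of 0.26, where other genes in that range had 17.9% called higher and a median of -0.14. Between 4703 and 6802 bases, 31 of 68 members were called higher and 3 lower, with a median of 0.52, against 26.5% and -0.01 for other genes. Members of 6831 to 18608 bases had 41 of 69 called higher and 4 lower, with a median of 0.61, against 35.6% and 0.15 for other genes. In each range the members' median was above that of other genes. Across the 206 tested members, which share the 6 libraries, Spearman's rho with log2 fold change was 0.20 for length and -0.56 for GC content, and it was 0.21 and -0.40 over all genes tested. After a smooth trend over length and GC content was removed from all genes, the median of the members was 0.26 instead of 0.46. It was 0.27 for KRAB members, 0.04 for members without KRAB, -0.03 for other chromosome 19 genes and 0.26 for ZNF genes of other chromosomes. By sub-cluster it stayed highest in ZNF175 to ZNF331 (0.75) among the 8, and was 0.39 in ZNF101 to ZNF254, 0.28 in ZNF565 to ZNF573 and 0.03 in ZNF628 to ZNF446. In the run from ZNF628 to ZNF444 the median was -0.13 with this correction and -0.59 without it.

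**Figure D4:**
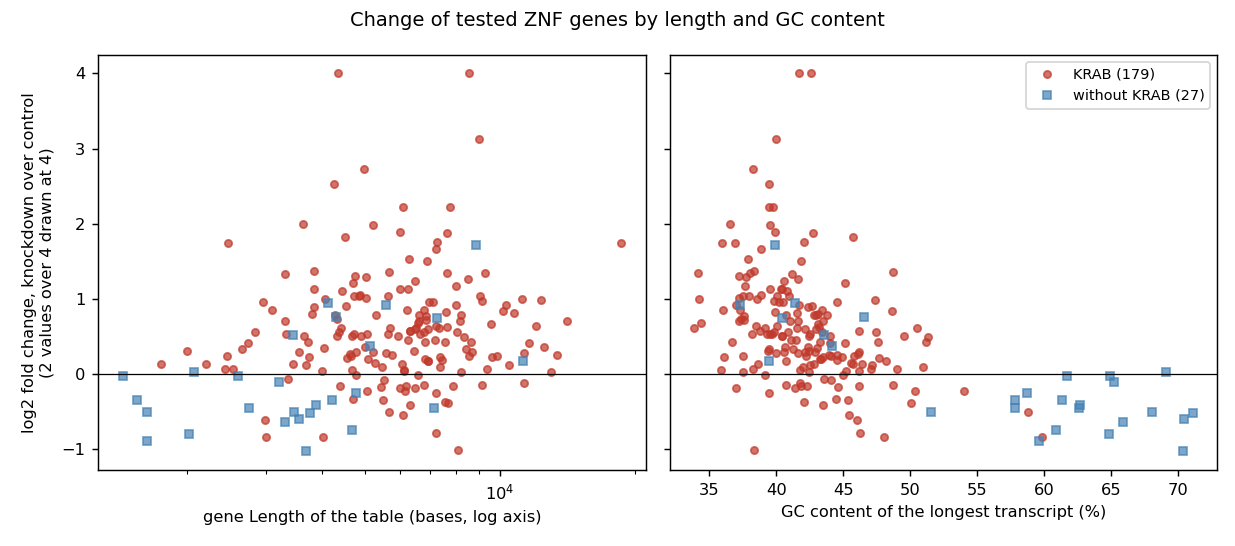
Log2 fold change, knockdown over control, of the 206 tested ZNF genes against gene length (left, log axis) and transcript GC content (right), with KRAB members as red circles and members without KRAB as blue squares. Genes of low GC content lie higher (Spearman's rho -0.56), most members without KRAB lie at high GC content, and ZNF528 and ZNF649 are drawn at 4.

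By known role, a list of repressors of transposable elements held 4 members, of which ZNF93 was untested. ZNF91, which silences SVA elements, had 16.8, 20.04 and 15.5 CPM in knockdown libraries, against 12.6, 8.62 and 6.26 CPM in control libraries, a log2 fold change of 0.93 (SE 0.24, edgeR adjusted p = 0.014). ZNF611, which also binds SVA elements, had 19.03, 24.1 and 19.5 CPM in knockdown libraries, against 17.8, 14.6 and 13.2 CPM in control libraries, a log2 fold change of 0.46. Both were called higher, as were 46.1% of all members tested and 26.7% of all genes, and ZNF649 passed the filter only through the knockdown group and is not counted with them. After the length and GC correction ZNF91 was at 0.45 and ZNF611 at 0.20. The call of ZNF91 was lost without control replicate 2 (edgeR adjusted p = 0.054), and that of ZNF611 without any 1 library other than control replicate 1 (up to 0.13). With the replicate block the call of ZNF611 was lost too.

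Of 9 members described as silenced by promoter methylation in tumours, 5 were tested and 1 (20%, against 26.7% of all genes) was called higher, ZNF331. ZNF135 had 0 counts in all libraries and ZNF471 had 1 count. ZNF677 (0.06), ZNF382 (0.28), ZNF154 (0.61) and ZNF132 (0.51) had no call. Of 9 members with a known partner or target, 6 (66.7%) were called higher and 1 (11.1%) lower, against 46.1% and 8.25% of members and 26.7% and 25.1% of all genes. ZNF274, which recruits SETDB1 to the ends of other zinc finger genes, had 16.4, 15.8 and 15.8 CPM in knockdown libraries, against 11.2, 11.1 and 11.6 CPM in control libraries, a log2 fold change of 0.50 (SE 0.10, edgeR adjusted p = 0.0052). ZNF350, the BRCA1 partner also called ZBRK1, had 2.83, 2.87 and 2.38 CPM in knockdown libraries and 1.38, 1.27 and 1.65 CPM in control libraries, a log2 fold change of 0.90. ZNF569 (1.30), ZNF224 (0.96), a repressor of the aldolase A gene, ZNF146 (0.95) and ZNF675 (0.86), an inhibitor of TRAF6 signalling, were the other risers, and ZNF675 was at 0.47 after the length and GC correction. ZNF675 lost its call without any 1 library other than control replicate 1 (edgeR adjusted p up to 0.12).

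The co-repressors through which KRAB proteins act were called higher at a share near that of all genes and lower at a smaller one. Of 31 genes of this machinery, 9 (29%) were called higher and 5 (16.1%) lower, against 26.7% and 25.1% of all genes, with a median of 0.21. TRIM28, the KRAB co-repressor, had 405, 347 and 412 CPM in knockdown libraries, against 680, 827 and 796 CPM in control libraries, a log2 fold change of -0.98 (SE 0.11, edgeR adjusted p = 0.00038). SETDB1 had 33.7, 36.7 and 32.0 CPM in knockdown libraries, against 32.5, 33.0 and 32.1 CPM in control libraries, and no call (log2 fold change 0.07, edgeR adjusted p = 0.56). GATAD2A (-0.95) and MBD3 (-0.86), subunits of the NuRD deacetylase complex, the histone chaperone DAXX (-0.55) and the methyltransferase EHMT1 (-0.53) fell. ATRX, the chromatin remodeller that works with DAXX, rose most (1.40), followed by SMARCAD1 (0.71), the HUSH subunit MPHOSPH8 (0.70), TRIM33 (0.69) and MORC2 (0.56). PPHLN1 (0.40), CHD3 (0.34), CBX5 (0.28) and CBX1 (0.24) were also called higher. After the length and GC correction the median of the 31 genes was -0.02. Values were then 0.77 for ATRX, 0.60 for MORC2 and MPHOSPH8, 0.49 for CHD3, 0.31 for CBX1, 0.29 for SMARCAD1 and 0.28 for TRIM33. They were 0.02 for PPHLN1, -0.11 for CBX5, -0.25 for DAXX, -0.55 for MBD3 and EHMT1, -0.56 for TRIM28 and -0.74 for GATAD2A. Dropping control replicate 2, control replicate 3, knockdown replicate 1 or knockdown replicate 3 ended the calls of CBX5 and CBX1, and dropping knockdown replicate 2 that of CBX5 (edgeR adjusted p up to 0.17). Both calls were also lost without a filter and with the replicate block. A 1 CPM filter ended that of CBX5 and upper-quartile factors that of CBX1. Those of CHD3, MPHOSPH8, PPHLN1 and TRIM33 were lost without control replicate 2 or 3 (up to 0.067), and that of SMARCAD1 without control replicate 2 (0.052).

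**Figure D5:**
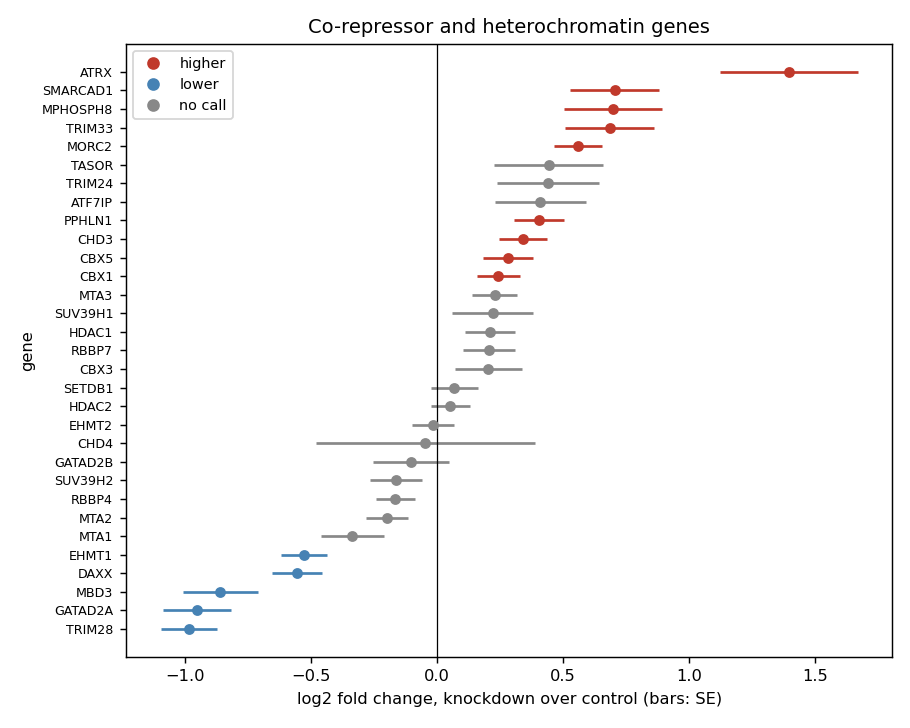
Log2 fold change, knockdown over control, of 31 co-repressor and heterochromatin genes with bars of 1 SE, in order of size and coloured by call. ATRX is highest at 1.40 and TRIM28 lowest at -0.98, with SETDB1 near 0.

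Most of a chosen list of zinc finger genes of chromosome 19 under other names were too low to test. Of 14 listed and found, 5 were tested, and PEG3, ZIM2, ZIM3, ZFP28 and ZSCAN1 had 0 counts in all libraries. ZFP14 (1.14), ZFP82 (0.77) and ZFP30 (0.33) were called higher, and ZSCAN5A (-0.61) lower. After the length and GC correction ZFP14 was at 0.77, ZFP82 at 0.38, ZFP30 at -0.05 and ZSCAN5A at -0.62. ZFP30 lost its call without control replicate 2 (edgeR adjusted p = 0.051), and ZSCAN5A when control replicate 2, control replicate 3, knockdown replicate 2 or knockdown replicate 3 was dropped (up to 0.10). Both calls were also lost with the replicate block. That of ZSCAN5A was lost with library size alone and by limma on log2(FPKM + 1) as well.

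The 40 untested members had at most 29 counts in a library. There were 15 at 0 in all libraries, and the remaining 25 summed to 351 counts in knockdown libraries and 146 counts in control libraries. Among those 25, the mean CPM was higher in knockdown cells for 19 and lower for 6. Shared sequence limits a few members: 20 share at least 20% of their 75-base stretches with another annotated gene. The other gene may be a copy elsewhere or a second annotation of the same locus. ZNF177, for example, shares 96.7% and overlaps the readthrough gene ZNF559-ZNF177. Of the 20 members, 1 was called, ZNF468, which shares 99.2% with other genes and overlaps ZNF28. In all, 63 members overlap another gene on the same strand, 28 of the 112 called ones among them, so their reads may be split between genes.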

How the data were processed

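Per the labels' protocols, TRIzol was used for total RNA and the NEBNext Ultra II RNA kit for the libraries. Per the file headers, the deposited table holds raw read counts of each gene as whole numbers, and FPKM values that those counts, lengths and column totals give back. Aligner, counter, build, annotation and strandedness were not given in the sources used here, so reads of genes overlapping on opposite strands may not have been told apart. Rows without a gene symbol numbered 629 and were kept as genes.

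Counts were tested over the whole table with edgeR 4.0.16 in R 4.3.3 (filterByExpr, TMM factors, quasi-likelihood test without covariates, Benjamini-Hochberg adjustment over 12292 genes, called at an adjusted p below 0.05). Levels are TMM-scaled CPM. Standard errors come from the fold change and its F statistic. The test was checked on simulated counts. KRAB class, zinc fingers, GC content and shared 75-base stretches were taken from GENCODE 29 sequences (KRAB also from the table's KEGG annotation), and length and GC trends were fitted with mgcv 1.9.3.

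Members, lists and tests were chosen with earlier results of these data known. Named members are the 10 that rose most and the 10 that fell most, where groups are separate and the mean reaches 1 CPM, the 2 most abundant per sub-cluster with at least 5 tested members, and listed members of known role. Alternatives were other scalings, filters and tests (DESeq2 1.42.0, limma 3.58.1), thresholds, gap sizes, a replicate block and each library left out. The correction for length and GC content together and the subset with a mean of at least 1 CPM were added after seeing the data. In the labels, groups share replicate numbers, but same-numbered libraries correlated by -0.36, -0.34 and 0.37 in their deviations, so the numbers were not taken as pairs. The libraries that stood apart carry different numbers, so these correlations cannot exclude pairing. Readthrough genes (3) were left out.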

Additional observations from a re-analysis of the deposited data

How the results depend on the processing

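More members were called higher than lower under every alternative run that makes calls. The 40 untested members had too few counts, 15 of them 0 in all libraries. Called higher and lower were 54 and 11 members at an adjusted p below 0.01, and 41 and 2 at 2-fold or more. With the replicate block the counts were 79 and 15, and in the sub-clusters ZNF653 to ZNF791 and ZNF302 to ZNF792 it left 5 and 2 called higher. It called 44.3% of all genes, against 51.8% in the main fit. Whether the replicate numbers pair the libraries is not known. Without both libraries that stood apart, 27 members were lower, 14 were higher in ZNF653 to ZNF791, and 3, 1, 2 and 1 were lower in ZNF557 to ZNF846, ZNF565 to ZNF573, ZNF575 to ZNF296 and ZNF175 to ZNF331, with medians of -0.15 in ZNF557 to ZNF846 and in ZNF628 to ZNF446. Over all genes 73.6% were called without these 2 libraries, against 51.8% with all libraries. By limma on log2(FPKM + 1) the medians were 0.26 for all members and 0.25, 0.43, 0.33 and 0.53 in ZNF653 to ZNF791, ZNF101 to ZNF254, ZNF565 to ZNF573 and ZNF175 to ZNF331, a scale that understates low genes. Corrected for length and GC content, medians were 0.26 for all members and 0.39, 0.28 and 0.12 in ZNF101 to ZNF254, ZNF565 to ZNF573 and ZNF575 to ZNF296, SHMT2 was at -4.51, and CBX5 (-0.11) and ZFP30 (-0.05) reversed. Corrected for length alone, the median of ZNF557 to ZNF846 was -0.17. With library size alone that of ZNF628 to ZNF446 was 0.13, where the median of all genes was 0.09. In ZNF575 to ZNF296, 1 member was lower with upper-quartile factors, a 1 CPM filter, limma-voom and limma on FPKM. A gap of 2 Mb gave 5 sub-clusters with medians from 0.29 to 0.73, and a gap of 0.5 Mb gave a lowest median of -0.59. Causes of these shifts were not tested.

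Leaving out each library in turn, the members' median ran from 0.37 (without knockdown replicate 2) to 0.53, with 64 to 103 called higher and 12 to 20 lower. The share of all genes called moved as well, from 38.0% (without control replicate 2) to 54.3% (without control replicate 1). Called higher ran from 8 to 17 in ZNF101 to ZNF254, 2 to 4 in ZNF302 to ZNF792, 1 (without control replicate 2) to 3 in ZNF557 to ZNF846, 8 to 18 in ZNF565 to ZNF573 and 4 to 10 in ZNF653 to ZNF791. Called lower ran from 0 to 2 in ZNF557 to ZNF846 (1 without control replicate 2, 2 without knockdown replicate 2) and 0 to 1 in ZNF575 to ZNF296 (1 without control replicate 1 or knockdown replicate 2). Medians ran from -0.15 to 0.13 in ZNF557 to ZNF846, 0.49 to 0.77 in ZNF565 to ZNF573 and -0.05 (without control replicate 1) to 0.09 in ZNF628 to ZNF446. Of 1241 values for 69 named genes under the alternatives, 1066 kept direction and side of the threshold, 85 lost a call, 14 gained one, 57 moved and 19 of 6 genes were classed as reversed. That class does not hold all genes given below with a change of sign. Besides CBX5 and ZFP30 these had no call, and most were near 0, but ZNF382 was at 0.28 and ZNF43 at 0.43. ZNF101, at -0.01, was at 0.08 with library size alone, 0.02 by limma-voom, 0.06 by limma on FPKM, 0.01 with the replicate block and -0.20 to 0.12 with a library left out. ZNF229, at -0.07, was at 0.01 with library size alone, 0.02 by limma on FPKM, 0.17 without both libraries that stood apart and -0.17 to 0.11 with a library left out. ZNF580, at -0.02, was at 0.06 with library size alone, 0.04 by limma on FPKM and -0.21 to 0.07 with a library left out. ZNF677, at 0.06, was at -0.02 without both libraries that stood apart. With length and GC content corrected, ZNF677 (-0.36), ZNF382 (-0.06), ZNF43 (-0.02) and ZNF580 (0.37), all without a call, also changed sign.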
